A study of Rattus norvegicus with 2 samples.

Results

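The genes described here are 9 enzymes and carriers of folate one-carbon metabolism, Folr1, Shmt1, Shmt2, Mthfd1, Mthfd2, Aldh1l1, Aldh1l2, Mthfs and Ftcd, in the liver of rats fed a choline-deficient diet. They were chosen by name, as every array probe that carries one of these gene names, which gave 13 probes for 9 genes among 41012 probes under 33719 gene names. Choline-deficient rats and control rats were Wistar animals of 7 weeks (spelled Wister in the labels) that ate their diet for 10 days, and the labels name no other treatment and state neither sex nor what the control diet held. Total liver RNA of the diets was hybridised together on 2 dual-dye arrays. Array 1 carried the choline-deficient sample in the red dye Cy5 and the control sample in the green dye Cy3, and the dyes were swapped on array 2. According to the labels 4 rats ate the choline-deficient diet, but how their RNA was divided over the arrays, pooled or singly, and whether the arrays shared extracts, is not stated. Every limma p-value below thus reflects the spread between 2 arrays, possibly a technical one. That spread is mostly pooled over genes (63.0 prior and 1 residual degree of freedom). A gene whose own arrays disagree can therefore pass.

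Tetrahydrofolate carries single-carbon units at several oxidation levels, which the cell takes mainly from serine and spends on purines, thymidylate and the remethylation of homocysteine to methionine. The pathway runs in parallel in the cytosol and in mitochondria, often with a separate gene for each compartment. Liver is the main folate store of the body, and choline enters the same network because its oxidation product betaine remethylates homocysteine without folate and its further breakdown hands single-carbon units to tetrahydrofolate in mitochondria.

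Each probe is a synthetic strand of 60 bases, and its position decides which part of a transcript was measured. The first 30 bases are shown for the only member that passed the test, Aldh1l1, for its mitochondrial paralog Aldh1l2, and for Mthfs, whose probes differed from each other. Capitals mark a stop triplet in the frame of the first base, where there is one within these 30 bases. A line without capitals can still have a stop further on. The brighter Aldh1l2 probe has 0 frames free of stops over its whole length.
Aldh1l1 probe: actgtgacttttgagtacTGAagccaagtc
Aldh1l2 brighter probe: ggcaccaaattactgacatcaccttcgata
Aldh1l2 dimmer probe: acatgtacctcgccaaagaggaatccttcg
Mthfs brighter probe: cccaacatcttaaattacaccacgacgacc
Mthfs dimmer probe: gtggacactctgcatcaaagtattttggag
The array files give the Aldh1l1 probe no genome position and place the Aldh1l2 probes at chr7:22450232-22450291 and chr7:22446107-22446166 on the plus strand of the rat build rn4. The Mthfs probes lie at chr8:94106128-94106187 and chr8:94107090-94107149, also on the plus strand. Of the 13 probes, 12 have a position, and 2 of them, the Shmt1 probe and a dimmer Mthfd2 probe, cover 328 and 668 bases of the genome with their 60 bases. No member probe shared a run of 16 or more bases with a probe of another gene name on the array. Probes were compared only with other probes and not with transcripts. Whether a probe also binds the transcript of a paralog was therefore not tested. Whether a probe lies in coding sequence or in an untranslated region was not looked up, since no rn4 annotation was used here.

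All 13 probes were well above background in all 4 channels (each diet on each array), on single spots with no outlier flag, and no gene spot on either array was saturated. Over the 43379 gene spots of an array, 62.9% and 53.5% were well above background in choline-deficient RNA on array 1 and array 2, against 54.2% and 63.2% in control RNA. The higher share lay in Cy5 each time. Among hepatocyte markers, 6 of 6 (Alb, Apoa1, Cps1, Serpina1, Tf and Ttr) were well above background in all 4 channels. So was every tested marker of Kupffer, endothelial, stellate, cholangiocyte and erythroid cells. Of the 18195 genes tested, 16675 had a probe that met this condition, so it does not set hepatocyte markers apart. No lymphocyte marker could be tested.

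The comparison asked which of these genes changed with the choline-deficient diet. A single member fell, the cytosolic formyltetrahydrofolate dehydrogenase Aldh1l1, by 0.56 on the log2 scale (SD 0.05, n = 2 arrays), and none rose. The remaining 8 of 9 did not pass, with mean log2 ratios from -0.27 for Ftcd to 0.09 for Mthfd1. In limma's test, 8.62% of the 18195 genes tested passed an adjusted p of 0.05 (4.37% higher and 4.25% lower in choline-deficient liver), so 1 of 9 is a share near that of all genes. The median log2 ratio of the 9 genes was -0.02, against 0.00 over all genes tested, and their median absolute ratio was 0.09, against 0.08. Signs were the same on both arrays for 6 of 9 members, against 56.4% of all genes.

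**Figure D1:**
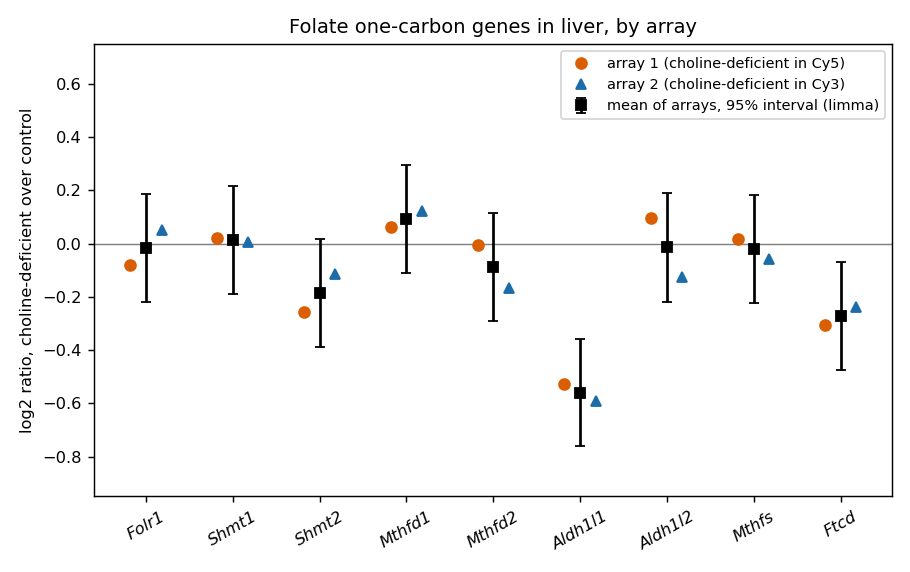
The log2 ratio of choline-deficient over control liver is plotted for each gene, with a circle for array 1, a triangle for array 2 and a square with limma's 95% interval for their mean. Aldh1l1 lies at -0.53 and -0.59 on the arrays, below every other gene shown, and the intervals of the genes other than Aldh1l1 and Ftcd include 0.

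For these genes the 95% interval of the mean log2 ratio extended about 0.20 to either side. For the 8 members that did not pass, the interval lay within a 1.5-fold change in either direction, so a larger shift than that was outside the intervals of this fit. For the dim probe of Folr1 this does not bound the change, since the offset draws its ratios towards 0, as described below. These intervals hold the spread between the arrays, pooled over genes, and not a measured spread between rats. Liver was measured in bulk, where fewer cells of a type and less RNA per cell cannot be told apart.

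Uptake was represented by Folr1, the membrane-anchored folate receptor alpha, which is known best from kidney and choroid plexus. Its probe (chr1:159316105-159316164, minus strand) was dim, with raw mean signals of 154 and 156 in choline-deficient RNA and 135 and 177 in control RNA, against local background of 45 to 52. The normalized log2 signal was 7.31 and 7.40 in choline-deficient liver on arrays 1 and 2, against 7.39 and 7.34 in control liver. The groups overlapped and the sign differed between arrays. The mean log2 ratio was -0.02 ± 0.09 (SD, n = 2 arrays), with an interval of -0.22 to 0.19 and a limma adjusted p of 0.986. The offset added before taking logs draws the ratios of such a dim probe towards 0. With local background taken off and no offset, under the same loess, the mean for Folr1 was -0.05 ± 0.16. The authors' deposited log ratio, which has no such offset either and was made by other software, gave -0.43 and 0.36 on the arrays. Why the deposited values lie further apart was not tested.

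Serine hands its side-chain carbon to tetrahydrofolate through the serine hydroxymethyltransferases, Shmt1 in the cytosol and Shmt2 in mitochondria. Shmt1 (chr10:46936747-46937074, minus strand) had normalized log2 signals of 10.37 and 10.36 in choline-deficient liver, against 10.35 and 10.36 in control liver. Before rounding, both choline-deficient values were just above both control values, and the mean log2 ratio was 0.01 ± 0.01 (interval -0.19 to 0.22, limma adjusted p = 0.989). The share of all genes that separate in this way was not counted, so such a separation, here and below, is only descriptive. Shmt2 (chr7:67494744-67494803, minus strand) had 12.30 and 12.43 in choline-deficient liver, against 12.56 and 12.54 in control liver. Both choline-deficient values were below both control values. The mean log2 ratio of Shmt2 was -0.19 ± 0.10 and did not pass (interval -0.39 to 0.02, limma adjusted p = 0.36). Within an array, the log2 ratio of Shmt1 exceeded that of Shmt2 by 0.28 on array 1 and by 0.12 on array 2, a difference that was not tested.

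The interconversion of single-carbon units is carried out by Mthfd1, a cytosolic enzyme with dehydrogenase, cyclohydrolase and formate-tetrahydrofolate ligase activity, and by Mthfd2, a mitochondrial dehydrogenase and cyclohydrolase known for high expression in embryonic and tumour cells. Mthfd1 (chr6:98910641-98910700, plus strand) had normalized log2 signals of 12.05 and 12.03 in choline-deficient liver, against 11.99 and 11.91 in control liver. Both choline-deficient values were above both control values. Mthfd1 was slightly higher on both arrays, by a mean log2 ratio of 0.09 ± 0.04 that did not pass (interval -0.11 to 0.29, limma adjusted p = 0.805). Mthfd2 was measured by 3 probes. The brightest, at chr4:117517929-117517988 on the minus strand, gave 8.55 and 8.33 in choline-deficient liver, against 8.55 and 8.50 in control liver. The groups overlapped, and the mean log2 ratio was -0.09 ± 0.11 (interval -0.29 to 0.12, limma adjusted p = 0.825). The other 2 Mthfd2 probes, which lie upstream of it on the minus strand, each gave a mean log2 ratio of 0.03 ± 0.02. Both were dim, with raw signals of 132 to 188 and 149 to 233 against local background of 43 to 51. The offset thus draws their ratios towards 0, as for Folr1. The authors' deposited log ratios were 0.34 and -0.08 for the dimmest probe and 0.01 and 0.04 for the other. The sign at this gene differed between probes, at values near 0.

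Excess formyltetrahydrofolate is disposed of by oxidation to carbon dioxide, which regenerates tetrahydrofolate. Aldh1l1 does so in the cytosol, where it is an abundant folate-binding protein of liver, and Aldh1l2 does so in mitochondria. Aldh1l1 had normalized log2 signals of 11.49 and 11.55 in choline-deficient liver, against 12.01 and 12.14 in control liver. Both choline-deficient values were below both control values (log2 ratios of -0.53 and -0.59). The mean log2 ratio was -0.56 ± 0.05 (interval -0.76 to -0.36), a 1.47-fold lower level, with a limma adjusted p of 3.04e-05. By size of decrease it ranked 160 of 18195 genes. In the authors' deposited table of within-array ratios, Aldh1l1 was at -0.55 (error 0.21, p = 0.00911) on array 1 and -0.64 (error 0.21, p = 0.00270) on array 2 after turning to the log2 scale and to choline-deficient over control. These deposited p-values come from the error estimate of a single array and are unadjusted. In the authors' deposited table, 3 of 26 values of the member probes had a p under 0.05, as did 10.4% and 7.41% of all gene spots on arrays 1 and 2.

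The Aldh1l1 call depended on the processing although its direction did not. When the deposited log ratio was tested instead, the mean was -0.59 and limma's adjusted p was 0.289, and with median centring in place of loess the mean was -0.38 with an SD of 1.41 between the arrays and an adjusted p of 1.00. Under each of these settings limma called 0 genes of 18195, with 2122 and 19 genes at an unadjusted p under 0.05. Aldh1l1 passed under the other 6 alternatives, with adjusted p from 3.96e-07 to 0.0409.

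**Figure D2:**
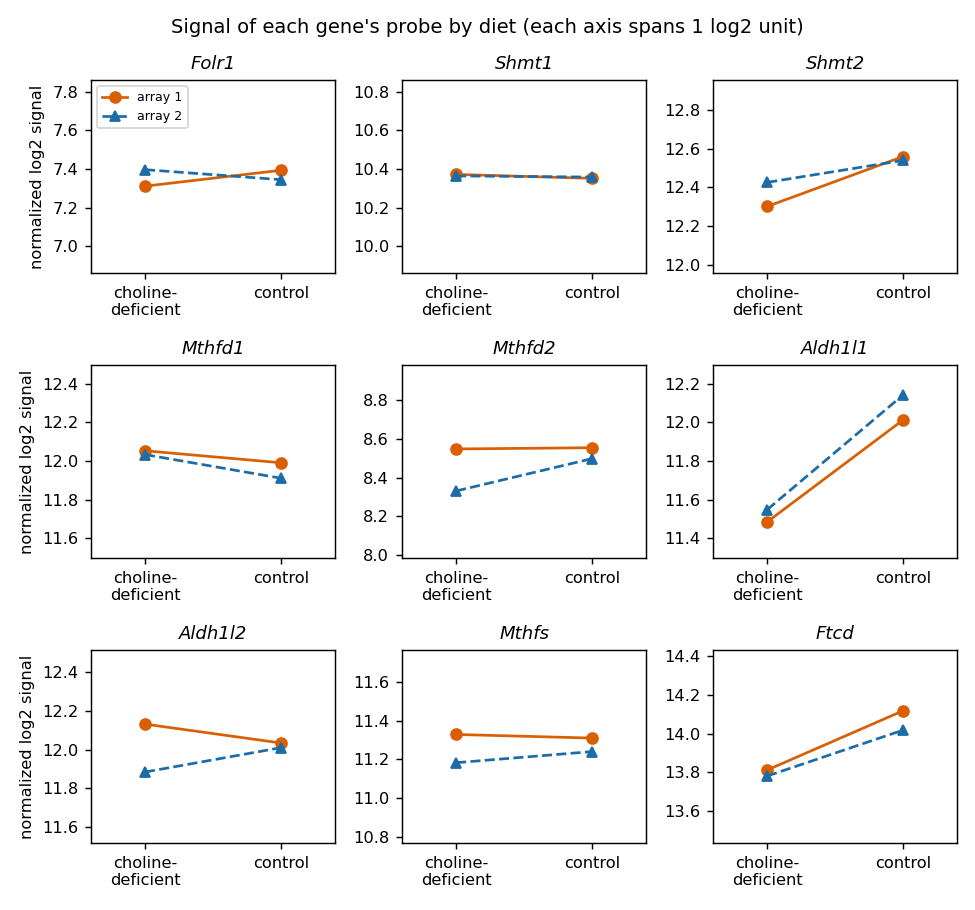
Normalized log2 signal of the probe used for each gene is plotted in choline-deficient liver (left) and control liver (right), with a circle and solid line for array 1 and a triangle and dashed line for array 2, on axes that each span 1 log2 unit. For Aldh1l1 the choline-deficient points lie at 11.49 and 11.55, below the control points at 12.01 and 12.14, while the lines of Shmt1 are nearly level.

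Aldh1l2 had normalized log2 signals of 12.13 and 11.88 in choline-deficient liver at its brighter probe, against 12.03 and 12.01 in control liver. The sign differed between the arrays (0.10 and -0.13), and the mean log2 ratio was -0.01 ± 0.16 (interval -0.22 to 0.19, limma adjusted p = 0.988). Its dimmer probe gave 0.03 and 0.05, a mean of 0.04 ± 0.01. The log2 ratio of Aldh1l1 was below that of Aldh1l2 on each array, with differences of -0.62 and -0.47, a comparison between paralogs that was not tested.

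Mthfs, the synthetase that returns the stable formyl form of folate to the active pool, also had probes that differed. The brighter one gave normalized log2 signals of 11.33 and 11.18 in choline-deficient liver, against 11.31 and 11.24 in control liver. These overlapped, and the mean log2 ratio was -0.02 ± 0.05 (interval -0.22 to 0.18, limma adjusted p = 0.982). The dimmer probe gave 8.47 and 8.29 in choline-deficient liver, against 8.50 and 8.76 in control liver. Its log2 ratio was thus -0.02 on array 1 and -0.46 on array 2, a mean of -0.24 ± 0.31 that rests on array 2, and it did not pass in a fit of every kept probe (limma adjusted p = 0.229, where 7.17% of 22364 probes passed). The authors' deposited table gave this probe p = 0.790 on array 1 and p = 0.00341 on array 2.

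Ftcd, the liver enzyme that moves the formimino group of histidine breakdown onto tetrahydrofolate, was the member closest to the threshold without passing. Its probe (chr20:12470464-12470523, minus strand) had normalized log2 signals of 13.81 and 13.78 in choline-deficient liver, against 14.12 and 14.02 in control liver. Both choline-deficient values were below both control values. The mean log2 ratio was -0.27 ± 0.05 with an interval of -0.47 to -0.07 and a limma adjusted p of 0.0884. Its adjusted p lay between 0.0702 and 1.00 over the 8 alternatives, none of which called it.

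**Figure D3:**
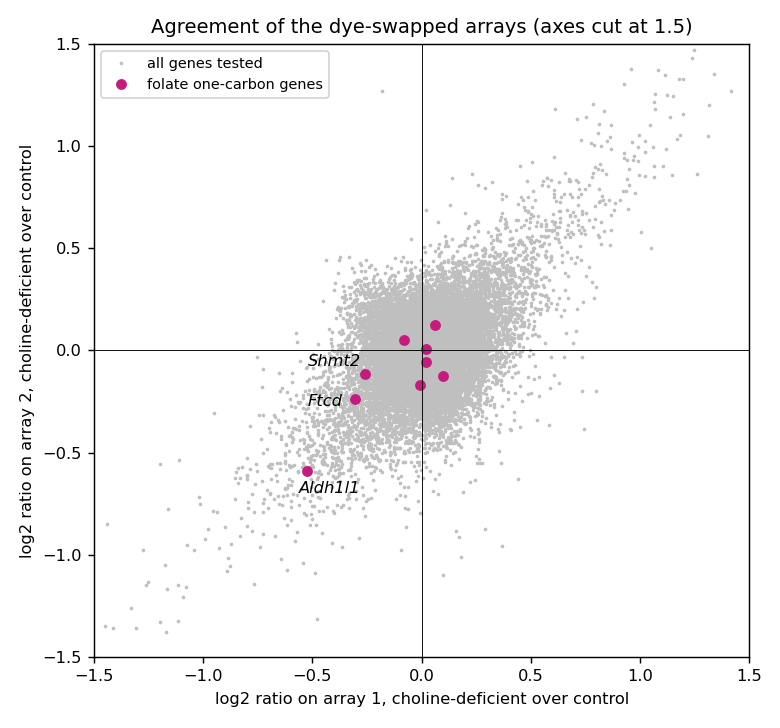
Each grey point is a gene, with its log2 ratio of choline-deficient over control liver on array 1 (x axis) and array 2 (y axis), and the 9 folate one-carbon genes are the larger points. Aldh1l1, Ftcd and Shmt2 lie below 0 on both axes, at -0.53 and -0.59, -0.31 and -0.24, and -0.26 and -0.11, and the other 6 genes, of which Mthfd2 is also below 0 on both arrays, lie in the dense centre.

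Further genes of the pathway were read from lists drawn up by function. Over all genes tested 8.62% passed, so a count of 0 or 1 in a short list differs little from that share. Of 7 folate carriers and storage enzymes, 5 could be tested, and 1 of them rose. This was Ggh, the gamma-glutamyl hydrolase that trims the polyglutamate tail by which folate is retained in cells. Ggh had normalized log2 ratios of 0.37 and 0.76 on the arrays, a mean of 0.57 ± 0.28 (limma adjusted p = 4.16e-05). The reduced folate carrier Slc19a1 (0.10 ± 0.11), the proton-coupled folate transporter Slc46a1 (-0.10 ± 0.14) and the folate receptor beta gene Folr2 (0.08 ± 0.04) did not pass. Fpgs, which adds the polyglutamate tail, did not pass the filter on dim probes, so the opposing step was not tested.

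Of 14 other folate-dependent enzymes, 13 were tested and 0 passed in either direction, with log2 ratios from -0.13 to 0.16 (2 of the 9 members and 17.6% of all genes were at an unadjusted p under 0.05 in limma). Among them were the thymidylate synthase Tyms (0.16 ± 0.08) and Mthfd1l (0.14 ± 0.00), the mitochondrial formate-producing relative of Mthfd1. The Mthfd1l probe was as dim as that of Folr1, with normalized log2 signals of 7.14 to 7.30. The offset thus also draws the ratios of Mthfd1l towards 0, and they do not bound its change. Of 7 enzymes of purine synthesis, a pathway that spends formyltetrahydrofolate at steps outside this list, 0 passed. Impdh2 (0.26 ± 0.24), Adss (0.19 ± 0.03) and Paics (-0.17 ± 0.08) had the largest ratios.

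Lists around the supply of single-carbon units were read in the same way. Of 7 genes listed for the route from choline to sarcosine and for making or breaking down sarcosine, 2 fell and none rose. The median of this list was -0.26, against 0.00 over all genes. Gnmt, which uses S-adenosylmethionine to make sarcosine and binds folate, lies off the route from choline itself. It had log2 ratios of -1.49 and -1.51 on the arrays (limma adjusted p = 3.41e-19). The betaine-homocysteine methyltransferase Bhmt was at -0.51 ± 0.16 (limma adjusted p = 0.000181). The sarcosine oxidase Pipox (-0.28 ± 0.05), the dimethylglycine dehydrogenase Dmgdh (-0.26 ± 0.10) and the choline dehydrogenase Chdh (-0.04 ± 0.19) did not pass. Of 4 tested genes of serine supply, Phgdh, the first enzyme of serine synthesis, fell, with log2 ratios of -0.64 and -0.18 and a mean of -0.41 ± 0.32 (limma adjusted p = 0.00478). Psph (-0.25 ± 0.08), Srr (-0.22 ± 0.26) and Sds (-0.01 ± 0.07) did not pass, and Psat1 did not pass the filter on dim probes. Upstream of Ftcd, 0 of 3 histidine degradation genes passed, with Uroc1 at -0.15 ± 0.25, Amdhd1 at -0.13 ± 0.17 and Hal at -0.03 ± 0.05.

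**Figure D4:**
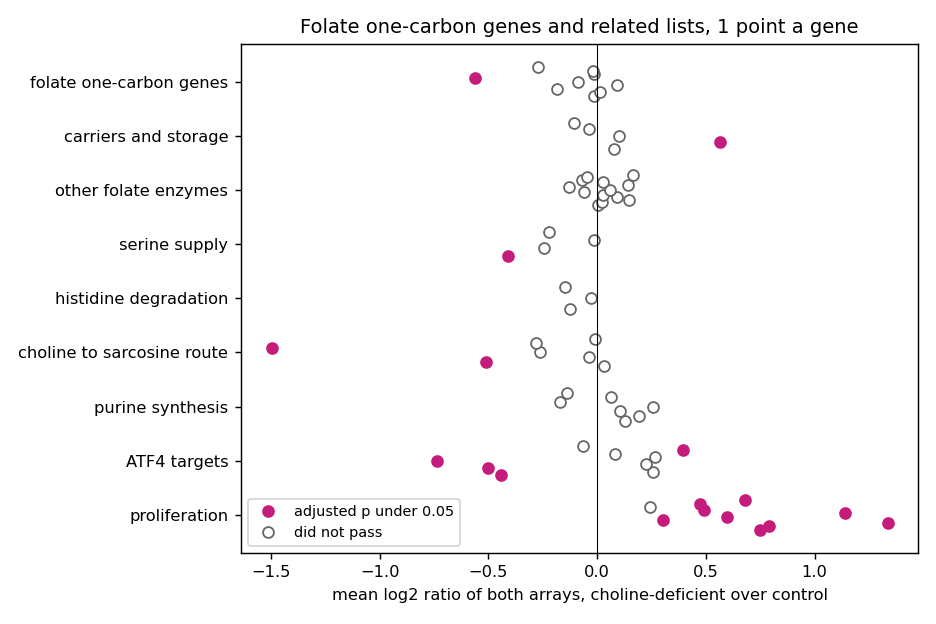
Each point is a gene placed by its mean log2 ratio of choline-deficient over control liver on both arrays, in rows for the 9 folate one-carbon genes and 8 related lists, filled where limma's adjusted p was under 0.05 and open otherwise. Filled points are 1 of 9 in the top row, 4 of 9 among ATF4 targets and 2 of 7 in the row named choline to sarcosine route. There is 1 each among carriers and serine supply. Atf5, filled among the ATF4 targets, had opposite signs on the arrays. In the proliferation row at the bottom, 9 of 10 points are filled, and all lie above 0.

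Mthfd2, Shmt2 and Aldh1l2 are known as targets of the stress-responsive factor ATF4 in cultured mammalian cells, and folate enzymes that serve DNA synthesis follow cell division in many tissues. Of 9 tested genes of the ATF4 list, 1 passed as higher and 3 as lower. Trib3, a pseudokinase, rose by 0.40 ± 0.25, while the asparagine synthetase Asns (-0.44 ± 0.01) and the glutathione-degrading enzyme Chac1 (-0.74 ± 0.02) fell. The other lower call was Atf5, with log2 ratios of 0.10 and -1.10 on the arrays (-0.50 ± 0.84). Its signal was higher in Cy5 on each array, so it followed the dye and gives no reading of the diet. Atf5 passed in a fit whose spread is pooled over genes. Atf4 itself (0.26 ± 0.35), Ddit3 (0.27 ± 0.10) and Cebpb (0.23 ± 0.01) did not pass. The motif TGATGNAA, the core that ATF4 dimers bind, was searched on both strands from 250 bases before to 50 after the gene start in RefSeq promoters of build GRCr8. It was found in 0 of the 6 members that have an entry (Aldh1l1, Ftcd, Mthfd2, Mthfs, Shmt1 and Shmt2), against 3.98% of 33469 promoters, which says only that these letters are not in this window.

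Of 10 tested proliferation genes, 9 rose and none fell, with a list median of 0.64. They were Cdk1 (1.34 ± 0.14), Mki67 (1.14 ± 0.11), Ccnb1 (0.79 ± 0.03), Ccna2 (0.75 ± 0.02), Top2a (0.68 ± 0.07), Mcm6 (0.60 ± 0.01), Pcna (0.49 ± 0.02), Rrm2 (0.47 ± 0.10) and Mcm2 (0.30 ± 0.14), while Rrm1 (0.24 ± 0.07) did not pass. Beside them, Mthfd2, Shmt2 and Tyms had the values given above and did not pass.

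Markers of liver cell types were read beside the fall of Aldh1l1. Of 6 hepatocyte markers, Alb fell (-0.31 ± 0.23) and Apoa1 rose (0.40 ± 0.24), Tf (-0.29 ± 0.94) and Serpina1 (-0.21 ± 0.61) had opposite signs on the arrays, and Cps1 was at -0.18 ± 0.03. Their summed normalized signal was 529700 and 423500 in choline-deficient liver, against 452300 and 594400 in control liver, so the groups overlapped. The higher sum lay in Cy5 on each array, so the sums followed the dye and give no reading of the diet. Of 3 tested endothelial markers, Kdr fell (-0.46 ± 0.17), Stab2 was at -0.21 ± 0.05 and Lyve1 at 0.04 ± 0.05, and their summed signal was 22170 and 22350 in choline-deficient liver, against 31830 and 27630 in control liver, a sum made up mostly of Kdr. Of 5 Kupffer cell and macrophage markers, Marco rose (0.91 ± 0.13), and the list sum was 21510 and 24220 in choline-deficient liver, against 26960 and 24650 in control liver. Most of that sum came from Clec4f, and the median log2 ratio of the list was 0.12. Clec4f (-0.29 ± 0.23), Cd68 (0.16 ± 0.14) and Csf1r (0.12 ± 0.00) did not pass. Of 4 stellate cell markers Vim rose (0.53 ± 0.06), with Pdgfrb at -0.23 ± 0.28, Lrat at -0.10 ± 0.06 and Des at 0.08 ± 0.16. None of 3 tested cholangiocyte markers passed (Epcam 0.27 ± 0.02, Sox9 0.04 ± 0.10, Krt19 -0.02 ± 0.11), nor did the erythroid genes Alas2 (-0.29 ± 0.27) and Hbb (-0.14 ± 0.04). The part of these cell types in the Aldh1l1 result was not tested.

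**Figure D5:**
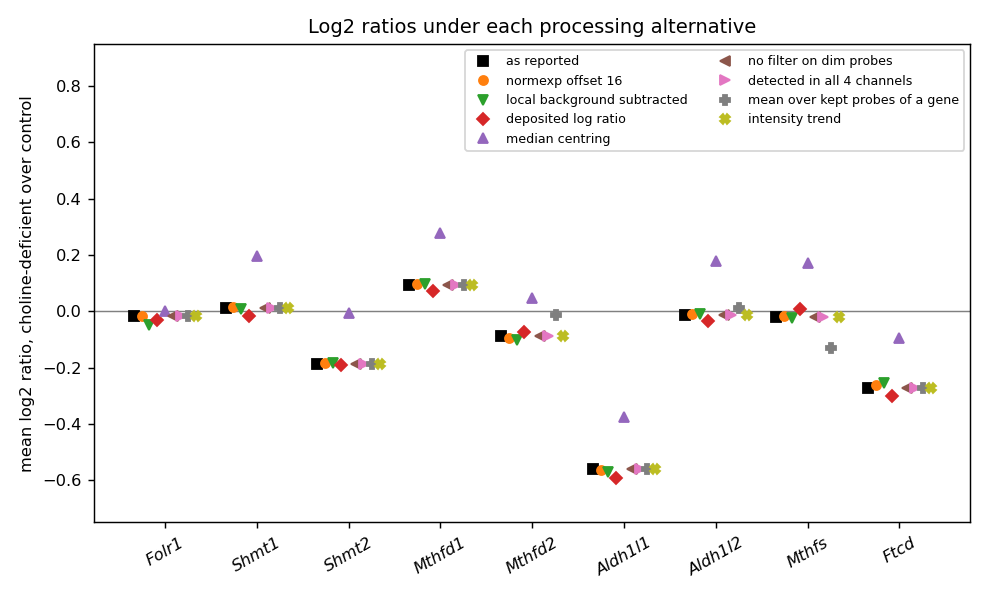
The mean log2 ratio of choline-deficient over control liver is plotted for each of the 9 genes as reported (black square) and under 8 other ways of processing the arrays. Median centring (purple triangles) places each gene higher than reported, and it also moves the median of all genes tested from 0.00 to 0.08. Aldh1l1 is the lowest gene under every setting shown, between -0.59 and -0.38.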

How the data were processed

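The deposited scanner files of 2 arrays hold spot and background intensity per dye. Per the file headers, the authors extracted them with Agilent Feature Extraction 9.5.3.1 and probe positions are those of rn4; the submitters' processing notes name version 9.5. The deposited log10 ratio (Cy5 over Cy3), its error score and its p-value come from that software, per the file headers. The series table equalled the log10 ratio in 45018 of 45018 rows on both arrays, within 1% of each value.

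With limma 3.58.1 in R 4.3.3, mean signals were corrected by normexp with an offset of 50 on median background and normalized by loess within each array (control spots at weight 0). Outlier spots were left out (174 and 151). Probes well above background on both arrays in at least 1 diet were kept (22364), and a gene was represented by its brightest kept probe (18195 genes). Levels are log2 after A-quantile scaling. Turned ratios were tested against 0, two-sided, with lmFit and eBayes (63.0 prior and 1 residual degree of freedom), and p-values were adjusted by Benjamini-Hochberg over all genes, after a test on simulated data. The 95% intervals are limma's. Among probes of 10 spots, the median SD of the log2 ratio within an array was 0.0610 and 0.0511, and the number of arrays limits precision. Members, lists and alternatives were chosen with earlier results of these data known. The naming rule takes all members, every list gene that passed and up to 3 per list that did not; a few list genes are not reported here. Of the 9 members, 8 matched RefSeq GRCr8 by accession.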

Additional observations from a re-analysis of the deposited data

How the results depend on the processing

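All values rest on 2 arrays whose spread is pooled over genes, and single spots carry each member. Taking local background off without an offset called 297 genes higher and 198 lower, against 795 and 773 as reported. The deposited log ratio and median centring each called 0 higher and 0 lower (2122 and 19 genes at an unadjusted p under 0.05), and hence 0 members lower in place of 1. The other 5 alternatives kept each count within 1.5 times the reported one. With both arrays kept, 10 member values changed sign, all of genes that did not pass. Under median centring these were Mthfd2 (0.0458), Mthfs (0.17), Aldh1l2 (0.18) and Folr1 (0.000499). With the deposited log ratio they were Mthfs (0.00942) and Shmt1 (-0.0155). With the mean over probes it was Aldh1l2 (0.0130). The other probes, chosen as an alternative after seeing the data, gave Aldh1l2 0.0401 and Mthfd2 0.0263 and 0.0254. The causes were not tested. Array 2 alone and array 1 alone gave Aldh1l1 -0.59 and -0.53, without a test, while a single array turned the sign of Mthfs (0.02, array 1), Aldh1l2 (0.10, array 1) and Folr1 (0.05, array 2), and no counts of calls could be had from 1 array. No paired analysis was possible because each array already sets the diets side by side and there is a single group of ratios.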
